A study of Mus musculus with 4 samples.

Results

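The 9 genes described here carry vitamin A from the blood to its nuclear receptor: Rbp4 and Stra6 (transport and uptake), Aldh1a1, Aldh1a2 and Aldh1a3 (synthesis of retinoic acid), Crabp1 and Crabp2 (binding), Dhrs3 (return of retinal to retinol) and Rarb (a receptor). They were chosen by name, 9 of 16305 genes with a row in the deposited tables. The tables for tumours 2, 3 and 4 hold all 9, and the table for tumour 1 has no row for Stra6, Crabp1 or Crabp2, which counted as 0 there in fits and were left out of means.

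Cells sorted as cancer-associated fibroblasts came from 4 untreated orthotopic APTKA tumours, which had been transplanted into the colons of female C57BL6J mice, and each tumour filled 1 plate of 384 wells. SORT-seq and CEL-Seq2 count transcripts at their 3′ end with a molecular identifier (UMI) in each well. All 4 plates belong to the same labelled group, so the comparisons below are between kinds of cells within tumours, and the tumours are the replicates. Whether the tumours came from separate mice is not stated, and the markers of the sort are not given. The p-values therefore measure how differences between kinds of cells vary among these plates.

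Retinol travels in blood bound to RBP4, enters cells that carry the receptor STRA6, and is oxidised to retinal by enzymes such as RDH10 and the alcohol dehydrogenases. The ALDH1A enzymes turn retinal into retinoic acid, an irreversible step, CRABP proteins bind the acid inside the cell, CYP26 enzymes break it down, and the rest acts on gene transcription through the RAR and RXR receptors. In the gut, stromal cells are among the known sources of retinoic acid, which guides lymphocytes to the mucosa.

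Rarb is the textbook target of its own ligand, through a direct repeat of a 6-base half-site with 5 bases between the copies (DR5) just before its start. RefSeq promoters (GRCm38.p6) were searched on both strands, from 250 bases before each start to 50 after it, for the half-sites AGGTCA and AGTTCA with GGGTCA and GGTTCA, and for pairs of these in the same direction spaced by 1 (DR1), 2 (DR2) or 5 bases; overlaps with other motifs were not removed. The upstream stretches of 3 members are shown, Rarb for the DR5, and Aldh1a1 and Rbp4 because telocyte-like cells held high levels of both. For Aldh1a1 and Rbp4 the stretch with a half-site is the one shown. Capitals mark the half-sites on either strand and, in Rarb, the whole DR5; each stretch runs 5′ to 3′ on the strand of its gene and ends at the base before the start. Gene positions given further on are also of GRCm38.
Rarb, chr14:16575477-16575726, minus strand: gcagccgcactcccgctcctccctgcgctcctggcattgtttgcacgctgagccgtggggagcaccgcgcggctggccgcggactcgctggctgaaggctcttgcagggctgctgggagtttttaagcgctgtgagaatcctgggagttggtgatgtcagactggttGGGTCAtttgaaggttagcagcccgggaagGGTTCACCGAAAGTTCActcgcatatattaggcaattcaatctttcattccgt
Aldh1a1, chr19:20601718-20601967, plus strand: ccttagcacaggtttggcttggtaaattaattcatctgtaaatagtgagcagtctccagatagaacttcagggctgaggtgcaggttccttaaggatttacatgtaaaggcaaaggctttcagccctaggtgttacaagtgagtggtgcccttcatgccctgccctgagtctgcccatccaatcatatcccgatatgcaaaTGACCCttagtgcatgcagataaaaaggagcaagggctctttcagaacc
Rbp4, chr19:38125322-38125571, minus strand: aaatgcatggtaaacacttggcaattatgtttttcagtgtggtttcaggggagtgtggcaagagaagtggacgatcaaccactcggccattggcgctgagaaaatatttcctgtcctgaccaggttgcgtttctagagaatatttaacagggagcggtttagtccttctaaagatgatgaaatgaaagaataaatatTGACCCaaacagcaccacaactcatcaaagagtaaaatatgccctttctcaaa

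The Rarb element, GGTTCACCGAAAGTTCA, begins 53 bases before the start. Such a DR5 is present in 32 of 32851 promoters, or 0.0974%. A half-site alone, as in the stretches of Aldh1a1 and Rbp4 shown, is present in 43.7% of promoters, and a DR1 or DR2 in 0.222% or 0.268%. Each of these genes has another listed start, whose window held no half-site. The upstream stretches there are chr19:20492333-20492582 for Aldh1a1 and chr19:38124812-38125061 for Rbp4. None of the 3 repeats was found in the windows of the other members listed in the table (Aldh1a1, Aldh1a2, Crabp1, Dhrs3, Rbp4 and Stra6), which says only that these letters are not there.

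Of 1536 wells, 740 held at least 1000 transcripts with at most 30% of mitochondrial origin and were kept, 43, 250, 243 and 204 from tumours 1 to 4. The median kept cell had 5552, 8516, 8108 and 9474 transcripts in these plates. Tumour 1 stood apart: 43.95% of its counts were spike-in RNA, against 5.54 to 8.59% on the other plates, 87 of its wells exceeded the mitochondrial limit, and its sequencing run differed, so run and tumour cannot be told apart. The sort label was checked against markers: Col1a1, Col1a2, Col3a1 and Dcn were found in 97.4 to 99.6% of kept cells and Pdgfra in 73.8%. Markers of endothelial, epithelial, immune and mesothelial cells were near 0.

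Kept cells were grouped by marker lists that hold no member. The groups with at least 5 cells in at least 2 tumours, counted over all tumours, were 39 wound-type cells (Mmp13, Mmp10, Mmp3, Timp1), 30 contractile cells (such as Tnc, Cthrc1 and Acta2), 45 inflammatory cells (such as Il6, Cxcl1 and Lif), 86 lamina propria-like cells (Adamdec1, Wnt4, Tcf21, Edil3), 26 telocyte-like cells (such as Bmp7, Bmp5 and Sox6), 29 trophocyte-like cells (Grem1, Rspo3, Rspo1), 64 adventitial-like cells (such as Pi16 and Cd34), 14 cycling cells, 36 smooth muscle-like cells (such as Myh11 and Actg2), 21 pericyte-like cells (such as Rgs5 and Notch3), 21 red cell-like wells and 237 other fibroblasts. A further 48 cells were gathered by P2ry1 and Kcnn3, 2 markers that are too few for a name, and are called P2ry1 Kcnn3 cells. The limits between groups are soft: 132 cells met more than 1 list and 64 lay within 0.1 of the threshold score. Wound-type cells held 185 Mmp13 transcripts per 10000, against 2.32 in all other cells. Timp1 of the same list differed less, at 8.39 against 7.38. Il11, which is also on the inflammatory list, was lower in inflammatory cells than in all other cells, at 1.26 against 1.47.

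All levels below are transcripts per 10000 non-spike-in transcripts of the summed cells of a group in a tumour, given from tumour 1 to 4 or, where tumour 1 had too few cells, from 2 to 4. Each group was tested against the mean of the other groups with edgeR's quasi-likelihood test on sums of at least 10 cells (23 sums of 8 groups, 5589 genes), with the tumour as a block. A repeat on sums of at least 5 cells (38 sums of 13 groups, 5289 genes) is the sole fit to hold telocyte-like, trophocyte-like, pericyte-like, cycling and red cell-like sums. Adjusted p-values are Benjamini-Hochberg values over all genes of a contrast, and a call is an adjusted p under 0.05. Fitted log2 differences are against a mean of logs in which groups at 0 depend on the prior count, so the sizes should be read from the levels. In the fit of smaller sums the median over all genes lay at 0.28 to 0.46 for every group but red cell-like wells, where it was -5.55, and differences there are relative to that.

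Across the 8 groups with sums of at least 10 cells, 8 of the 9 members were abundant enough to be fitted, Rarb being the exception, and 8 pairs of member and group were called higher and 1 lower. Wound-type cells had 3 of the 8 members higher (Stra6, Aldh1a2 and Crabp1), where 8.96% of all genes tested were higher. The Crabp1 call rests on 1 cell, and DESeq2 called Stra6 and Aldh1a2 alone. The median log2 difference of the 8 was 1.29, against 0.0091 over all genes. Contractile cells had 2 higher (Stra6 and Crabp2), with 6.1% of all genes higher, and 1 lower (Aldh1a1), with 3.38% of all genes lower; the members' median was 0.71, against 0.046. P2ry1 Kcnn3 cells and lamina propria-like cells had 1 higher each (Aldh1a1), with 9.82% and 8.16% of all genes higher, and smooth muscle-like cells had 1 (Rbp4), with 6.17%. With 8 members, 1 call is close to what these shares give. Members' medians were -1.11 in P2ry1 Kcnn3 cells, -0.13 in lamina propria-like cells and -1.82 in smooth muscle-like cells, against 0.0048, 0.030 and -0.069 over all genes. Adventitial-like, inflammatory and other fibroblasts had none of the 8 called by edgeR, with 7.85%, 4.83% and 5.76% of all genes higher. At an unadjusted p under 0.05 edgeR gave 2 of the 8 in adventitial-like cells, 1 in inflammatory cells and 2 in other fibroblasts, and DESeq2 called none in these 3 groups. Lower calls over all genes made up 6.42% in wound-type cells, 6.12% in P2ry1 Kcnn3 cells, 4.83% in smooth muscle-like cells, 3.31% in adventitial-like cells, 2.65% in lamina propria-like cells, 0.608% in other fibroblasts and 0.59% in inflammatory cells.

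In the fit of smaller sums 18 pairs were called higher and none lower by edgeR, while DESeq2 called 11 higher and 3 lower (Aldh1a1 in contractile and in cycling cells, and Aldh1a3 in cycling cells). Of all 5289 genes, edgeR called higher 11.3% in P2ry1 Kcnn3 cells, 9.38% in wound-type cells, 8.83% in inflammatory cells and 8.45% in other fibroblasts, and the shares of the other groups are given with their members. It called lower 4.71% in red cell-like wells, 2.8% in smooth muscle-like, 1.63% in pericyte-like, 1.46% in P2ry1 Kcnn3, 1.3% in wound-type, 1.0% in adventitial-like, 0.964% in telocyte-like, 0.454% in lamina propria-like, 0.435% in contractile, 0.34% in cycling, 0.227% in inflammatory and 0.151% in trophocyte-like cells, and 0.0945% in other fibroblasts.

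**Figure D1:**
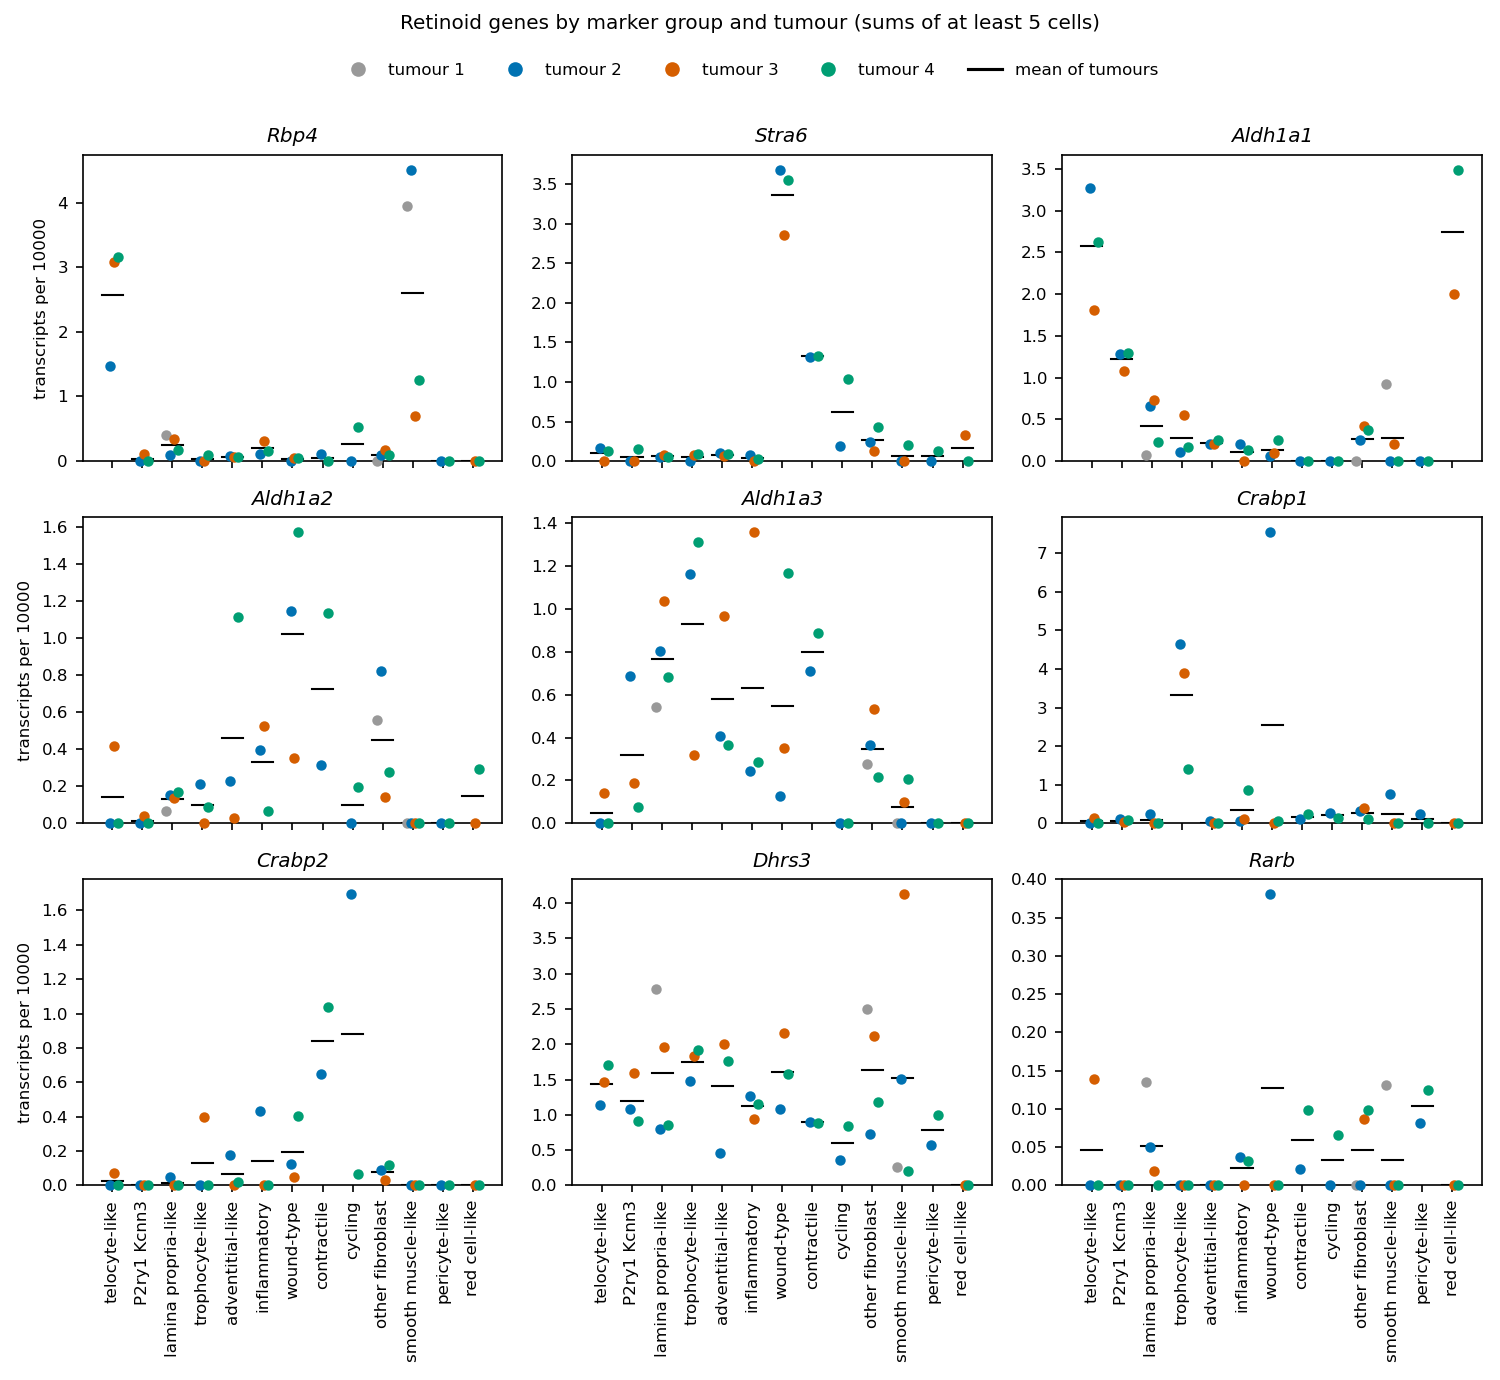
Level of each gene (y axis, transcripts per 10000) in each marker group (x axis), a point per tumour with at least 5 cells of the group and a bar at the mean of the tumours; tumour 1 is left out for Stra6, Crabp1 and Crabp2. Rbp4 stands high in telocyte-like and smooth muscle-like cells, Stra6 in wound-type cells at 2.85 to 3.68, and Crabp1 in trophocyte-like cells plus a point of tumour 2 at 7.56 in wound-type cells.

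Rbp4 (chr19:38116629-38125281, minus strand), the carrier of retinol in blood plasma, was found in telocyte-like and smooth muscle-like cells more than elsewhere. It was detected in 91 of 740 cells with 226 transcripts, at 1.09, 0.116, 0.327 and 0.214 over the kept cells of tumours 1 to 4. Telocyte-like cells held it at 2.22, 1.47, 3.07 and 3.15, where tumour 1 rests on 4 cells. Those 26 cells held 3.49% of all transcripts but 37.2% of Rbp4, and 16 of them had a transcript. In the fit of smaller sums Rbp4 was higher there by 4.94 on the log2 scale (SE 0.48, edgeR adjusted p = 1.20e-09), where 6.98% of 5289 genes were higher. Smooth muscle-like cells held Rbp4 at 3.95, 4.51, 0.705 and 1.25. The values of tumours 1 and 2 come from 6 and 5 cells, and 23 of the 30 transcripts in tumour 1 came from 1 cell. On sums of at least 10 cells, which keep tumours 3 and 4, Rbp4 was higher there by 2.98 (SE 0.71, adjusted p = 0.00482), and without tumour 3 or tumour 4 the adjusted p was 0.0611 or 0.289. With the smaller sums the difference was 3.99 (adjusted p = 1.03e-05, 8.7% of genes higher). Lamina propria-like cells, next in detection, had Rbp4 in 22 of 86 cells at 0.407, 0.101, 0.345 and 0.171, below every value of the telocyte-like and smooth muscle-like cells. No transcript was seen in 21 pericyte-like cells or 21 red cell-like wells.

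Stra6 (chr9:58063788-58153996, plus strand), the membrane receptor that takes retinol from RBP4, was highest in wound-type cells. It had 383 transcripts in 103 cells, at 0.478, 0.308 and 0.560 in tumours 2, 3 and 4. Wound-type cells held 3.68, 2.85 and 3.55 in these tumours, the highest of all groups in each of the 3, and 24 of the 39 cells had a transcript. Contractile cells came next at 1.31 and 1.33 in tumours 2 and 4, where 0.503 in tumour 3 rests on 4 cells. In tumour 4 the richest contractile cell held 20 of the 27 transcripts. Other fibroblasts reached 0.435 at most, and of the remaining sums of at least 5 cells only the cycling cells of tumour 4 were higher, at 1.04. Stra6 was higher by 4.73 in wound-type cells (SE 0.26, adjusted p = 2.98e-13) and by 3.13 in contractile cells (SE 0.34, adjusted p = 6.57e-07). Wound-type cells gave 6.21% of all transcripts and 48.3% of Stra6. With the smaller sums, cycling cells also had it higher by 1.65 (SE 0.50, adjusted p = 0.0380, 5.96% of genes higher), with 0.197 and 1.04 in tumours 2 and 4, a call that was lost without tumour 4 (adjusted p = 0.708), without the cell with most Stra6 (0.412), with DESeq2 (0.0600), with the looser gate (0.0553) and with RLE size factors (0.0515). Rbp4 and Stra6 peaked in different groups: Stra6 was at 0.164, 0 and 0.131 in the telocyte-like cells of tumours 2 to 4, and Rbp4 at 0, 0.0501 and 0.0508 in wound-type cells. Reads from Ccdc33, which overlaps part of the Stra6 gene on the opposite strand, and from Gm16131 on the same strand cannot be told apart from Stra6 here.

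Aldh1a1 (chr19:20492715-20643465, plus strand) encodes an enzyme that makes retinoic acid from retinal. Among the groups with at least 5 cells in at least 2 tumours, it was highest in telocyte-like cells and red cell-like wells, whose ranges overlapped. It was not seen in contractile or cycling cells. It had 383 transcripts in 180 cells, at 0.910, 0.286, 0.562 and 0.387 in tumours 1 to 4. Telocyte-like cells held 1.90, 3.27, 1.82 and 2.63, with a transcript in 19 of 26 cells. P2ry1 Kcnn3 cells held 1.28, 1.08 and 1.30 in tumours 2 to 4, in 27 of 48 cells, below every telocyte-like value. Aldh1a1 was higher by 3.13 in P2ry1 Kcnn3 cells (SE 0.38, adjusted p = 7.68e-07) and, in the fit of smaller sums, by 3.84 in telocyte-like cells (SE 0.45, adjusted p = 1.33e-07). Lamina propria-like cells were uneven at 0.0678, 0.655, 0.729 and 0.227, and were higher by 1.90 (SE 0.40, adjusted p = 0.00145). That last call was lost without tumour 3 (adjusted p = 0.0675), with at least 2000 transcripts a well and with at most 15% mitochondrial transcripts. In the fit of smaller sums the difference in lamina propria-like cells was 1.48 (SE 0.47, edgeR adjusted p = 0.0399). DESeq2 did not make the call there, and 7 alternatives kept it while 7 lost it.

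No Aldh1a1 transcript was found in 30 contractile cells, an upper limit of 0.0427 per 10000 (3 counts over the sums), or in 14 cycling cells. The fit called the contractile cells lower (adjusted p = 0.00135), and without tumour 2, without tumour 3 or with smaller sums the call was lost. Red cell-like wells held Aldh1a1 at 2.39, 8.71, 1.997 and 3.49, in 2, 3, 7 and 9 wells, from 24 transcripts in 10 of 21 wells, and were higher by 5.81 in the fit of smaller sums (SE 0.76, adjusted p = 7.92e-07, 1.85% of genes higher). The haemoglobin transcript Beta-s made up 7072 per 10000 of these wells, against 3.01 in telocyte-like cells. Aldh1a1 stood at 4.39 per 10000 Beta-s transcripts in red cell-like wells and at 7660 in telocyte-like cells. Beta-s is on the list that chose the red cell-like wells, so a low ratio there follows from that choice. The source of Aldh1a1 in these wells was not tested. Cells with the Cajal markers Kit and Ano1 (13 in all) had 27 transcripts, 17 of them in 1 cell that met 4 lists. Pooled over tumours they stood at 2.77 per 10000, against 2.31 in telocyte-like cells. Only tumour 4 had at least 5 of these cells. C730002L08Rik and the pseudogene Gm6684 overlap Aldh1a1 on the opposite strand, and Aldh1a7, its near copy, was not analysed here.

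Aldh1a2 (chr9:71215789-71296243, plus strand), the form of the enzyme that mesenchyme uses in the embryo, had its highest means over tumours in wound-type and contractile cells. It had 306 transcripts in 94 cells, at 0.0758, 0.376, 0.196 and 0.496 in tumours 1 to 4. Wound-type cells held 1.14, 0.351 and 1.57 in tumours 2 to 4, in 17 of 39 cells, and were higher by 2.89 (SE 0.65, adjusted p = 0.00225). Contractile cells held 0.313 and 1.13 in tumours 2 and 4, a range that overlaps that of the wound-type cells, and were not called. In tumour 4 the richest contractile cell held 18 of the 23 transcripts. Adventitial-like cells reached 1.12 in tumour 4 against 0.229 and 0.0294 in tumours 2 and 3, but 33 of the 52 transcripts behind it came from 1 cell. Other fibroblasts held 0.555, 0.824, 0.144 and 0.277. Inflammatory cells held 0.397, 0.524 and 0.0639 in tumours 2 to 4, and telocyte-like cells 0, 0.419 and 0. Wound-type cells were the highest group in tumours 2 and 4, and in tumour 3 inflammatory and telocyte-like cells stood above them. No transcript was found in 36 smooth muscle-like and 21 pericyte-like cells, and P2ry1 Kcnn3 cells had 1. Aldh1a2 and Aldh1a1 led in different groups.

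Aldh1a3 (chr7:66390890-66427517, minus strand), the third form, had its highest means over tumours in trophocyte-like, contractile and lamina propria-like cells. It had 431 transcripts in 145 cells, at 0.455, 0.389, 0.642 and 0.432 in tumours 1 to 4. Lamina propria-like cells held 0.543, 0.806, 1.04 and 0.682, in 35 of 86 cells, and trophocyte-like cells held 1.16, 0.318 and 1.31 in tumours 2 to 4. Contractile cells held 0.709 and 0.888 in tumours 2 and 4. Of these transcripts, 31 of the 34 in tumour 2 and 16 of the 18 in tumour 4 lay in 1 cell each. Inflammatory cells, next by mean, lay between 0.246 and 1.36. The 1.36, in tumour 3 from 6 cells, was the highest of the sums of at least 5 cells in the 13 groups. Wound-type cells held 0.127, 0.351 and 1.17. These ranges overlap. On sums of at least 10 cells no group was called by edgeR or DESeq2 and 2 groups had an unadjusted p under 0.05, contractile cells (adjusted p = 0.0611) and lamina propria-like cells (adjusted p = 0.0655). In the fit of smaller sums it was higher in 4 groups, by 2.68 in lamina propria-like cells (adjusted p = 0.00147, 9.55% of genes higher), by 2.91 in trophocyte-like cells (adjusted p = 0.00688, 6.41%), by 2.91 in contractile cells (adjusted p = 0.00487, 6.43%) and by 2.18 in adventitial-like cells (adjusted p = 0.0162, 10.7%). The adventitial-like call was lost with RLE size factors (adjusted p = 0.0603), with DESeq2 (0.172), without tumour 3 (0.0842) and without its richest cell (0.0853). The contractile call was lost with DESeq2 (adjusted p = 0.0553), without tumour 2 (0.0729) and without its richest cell (0.229), and the trophocyte-like call without tumour 4 (0.150). Telocyte-like cells, so rich in Aldh1a1, had Aldh1a3 in 1 of 26 cells, and red cell-like wells had none. The 13 cells with Cajal markers, too few to be ranked, held 3.25% of Aldh1a3 and 1.09% of all transcripts.

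Crabp1 (chr9:54764748-54773110, plus strand), which binds retinoic acid in the cytoplasm, marked part of the trophocyte-like cells. It had 363 transcripts in 83 cells, at 0.716, 0.297 and 0.218 in tumours 2, 3 and 4. Trophocyte-like cells held 4.65, 3.90 and 1.399 in these tumours, in 10 of 29 cells. Of their 109 transcripts, 26 lay in 1 cell of tumour 3 and 21 in 1 cell of tumour 2. Trophocyte-like cells were higher by 4.94 in the fit of smaller sums (SE 0.73, edgeR adjusted p = 1.14e-05). The next highest level in the fitted sums of any other group outside tumour 2 was 0.863, in the inflammatory cells of tumour 4, of whose 27 transcripts 18 were in 1 cell. In wound-type cells the levels were 7.56, 0 and 0.0508, and 117 of the 120 transcripts lay in 1 cell of tumour 2. The fit called wound-type cells higher by 4.40 (SE 0.94, adjusted p = 0.00148), yet without tumour 2 the value was -0.95, and without that cell it was -0.89 in the fit of smaller sums. The call rests on this cell, which met the wound-type list alone, had 22328 transcripts and held 32.2% of all Crabp1.

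Crabp2 (chr3:87948666-87953376, plus strand), the binding protein that hands retinoic acid to the receptor, had 33.1% of its transcripts in contractile cells, which gave 7.86% of all transcripts, 27.5% in cycling cells and 14.4% in inflammatory cells. It had 160 transcripts in 46 cells, at 0.363, 0.0363 and 0.139 in tumours 2, 3 and 4. Contractile cells held 0.647 and 1.04 in tumours 2 and 4, in 14 of 30 cells when the 4 cells of tumour 3 are counted. In tumour 4 the richest contractile cell held 17 of the 21 transcripts. Contractile cells were higher by 3.99 (SE 0.76, edgeR adjusted p = 0.00125). In the fit of smaller sums they were higher by 4.22 (SE 0.91, edgeR adjusted p = 0.00358), a call that DESeq2 did not make. Wound-type cells held 0.127, 0.0501 and 0.406, below both contractile values. Cycling cells were higher by 3.92 in the fit of smaller sums (adjusted p = 0.00955) with 1.70 and 0.0653 in tumours 2 and 4, but 41 of the 44 transcripts lay in 1 cell with 79342 transcripts that met the inflammatory, contractile and cycling lists, and the call was lost without tumour 2 (adjusted p = 0.894) and with DESeq2 (0.438). Smooth muscle-like, pericyte-like and P2ry1 Kcnn3 cells had no transcript.

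Dhrs3 (chr4:144892827-144928209, plus strand), a retinal reductase that retinoic acid is known to induce and that returns retinal to retinol, was the most widespread member. It had 1176 transcripts in 344 of 740 cells, at 1.95, 0.841, 1.89 and 1.18 in tumours 1 to 4. Of the 13 groups with enough cells, all but the 21 red cell-like wells had it: mean levels over tumours ran between 0.602 in cycling cells and 1.75 in trophocyte-like cells. Wound-type cells held 1.08, 2.15 and 1.57, telocyte-like cells 1.14, 1.47 and 1.71 and contractile cells 0.897 and 0.888 in their tumours, and no group was called by edgeR or DESeq2 in either fit, with 1 unadjusted p under 0.05, for trophocyte-like cells. Tumours differed within a group: smooth muscle-like cells lay between 0.208 and 4.13, with 27 of the 41 transcripts at the top value in 1 cell. The highest and the next group in the order did not separate beyond their ranges.

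Rarb (chr14:16430839-16819156, minus strand), the retinoic acid receptor whose DR5 is shown above, was near the limit of detection. It had 34 transcripts in 24 cells, at 0.0758, 0.0353, 0.0363 and 0.0376 in tumours 1 to 4, where 3 counts would give 0.0758 in tumour 1. No group mean exceeded 0.127, that of wound-type cells, which came from 6 transcripts in tumour 2. Of those, 5 lay in the same cell that held the 117 Crabp1 transcripts, and another cell, of tumour 4, held 5 more. It was too scarce to be fitted on sums of at least 10 cells, so differences between groups were not detectable at this depth. Top2b and the antisense gene Gm48162 overlap Rarb on the opposite strand, and whether strand was used in counting is not given in the sources used here.

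**Figure D2:**
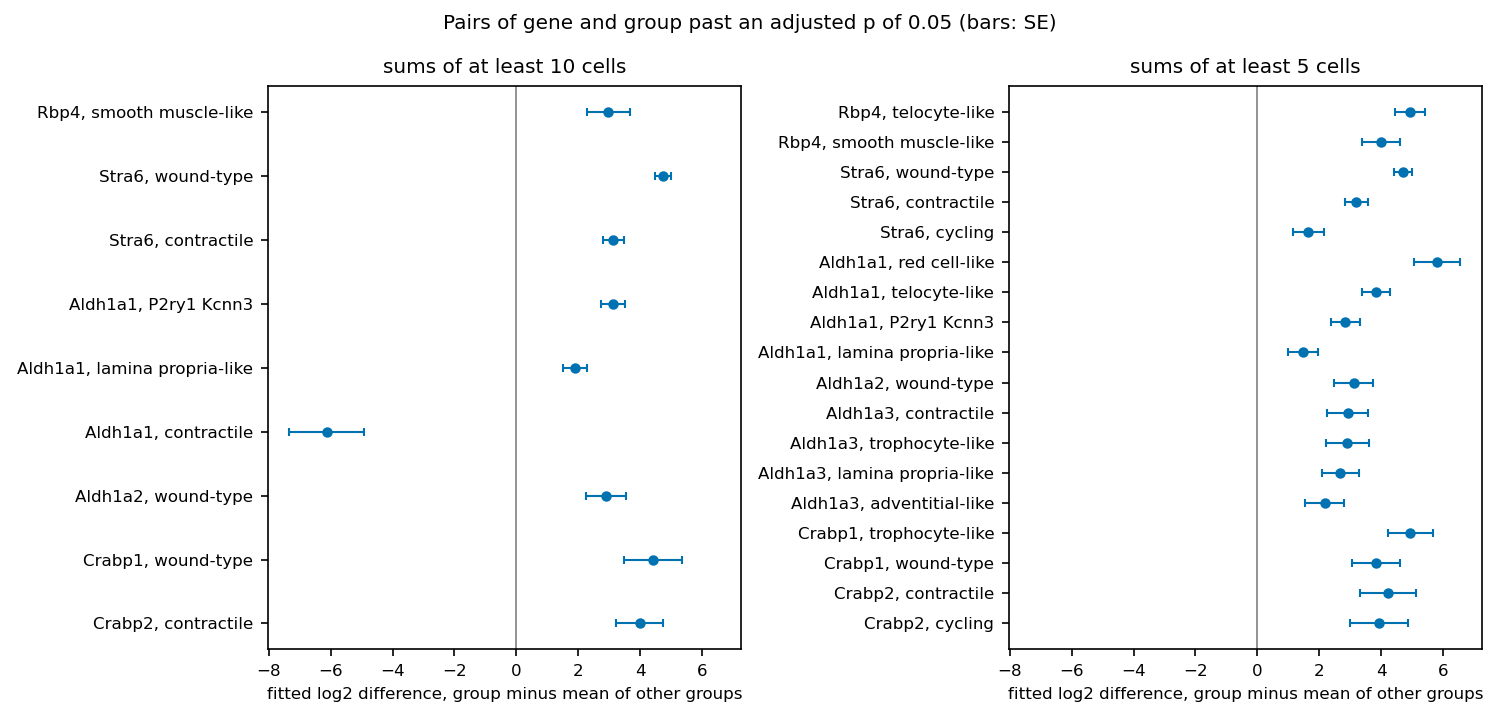
Fitted log2 difference of a group minus the mean of the other groups (x axis) for the pairs of gene and group with an edgeR adjusted p under 0.05 (y axis), with bars of 1 SE; left, sums of at least 10 cells, right, sums of at least 5 cells. All differences but Aldh1a1 in contractile cells, which had no transcript, lie above 0, and Crabp1 in wound-type cells rests on 1 cell.

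Detection rises with depth, so cells were thinned to 3000 UMIs each, which 597 cells reached. Stra6 was then seen in 17 of 38 wound-type and 8 of 27 contractile cells, Rbp4 in 8 of 26 telocyte-like and 7 of 19 smooth muscle-like cells, and Crabp1 in 7 of 26 trophocyte-like cells. Aldh1a1 was seen in 11 of 26 telocyte-like, 14 of 46 P2ry1 Kcnn3 and 5 of 7 red cell-like wells, and Crabp2 in 4 of 27 contractile cells. Unthinned, the matching counts were 24 of 39, 16 of 30, 16 of 26, 14 of 36, 10 of 29, 19 of 26, 27 of 48, 10 of 21 and 14 of 30.

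Most cells held 2 members or fewer. No member was seen in 182 cells, 1 member in 217, 2 in 185, 3 in 110, 4 in 39, 5 in 5 and 6 in 2, and median depth ran with this number, at 3921 transcripts for cells with none and 25601 for cells with 4. Among the Aldh1a genes, 275 cells held 1, 69 held 2 and 2 held all 3, while 394 held none. The pair Rbp4 and Aldh1a1 shared 42 cells, 46.2% of Rbp4 cells and 23.3% of Aldh1a1 cells. Stra6 and Aldh1a2 shared 35, 33.98% of Stra6 cells and 37.2% of Aldh1a2 cells, and Stra6 and Crabp2 shared 19, 18.4% and 41.3%. Aldh1a1 and Aldh1a2 shared 14 cells, 7.78% of Aldh1a1 cells and 14.9% of Aldh1a2 cells. A wound-type cell of tumour 2 with 41851 transcripts held Stra6, Aldh1a2, Crabp1, Crabp2, Dhrs3 and Rarb, and a contractile cell of tumour 2 with 44225 transcripts held Rbp4, Stra6, Aldh1a3, Crabp2, Dhrs3 and Rarb.

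**Figure D3:**
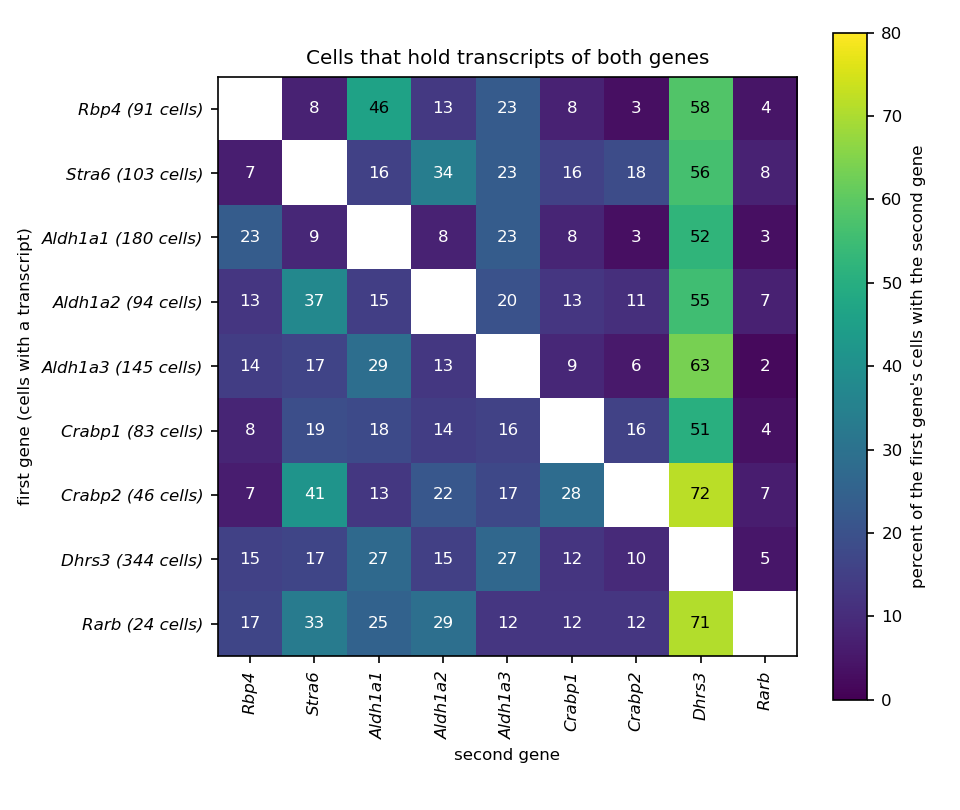
Percent of the cells with the first gene (rows, number of cells in brackets) that also held the second gene (columns), over 740 kept cells; empty squares are the gene with itself. Dhrs3, the most widely detected gene, is in 50.6 to 71.7% of the cells of every other gene, and Rbp4 with Aldh1a1 and Crabp2 with Stra6 are the highest of the other pairs, at 46.2% and 41.3%.

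Whether cells with transcripts of the Aldh1a enzymes also held the other members was asked by splitting the 632 fibroblast-like cells into 319 with and 313 without an Aldh1a transcript. The Aldh1a genes set the split and are not tested. Cells with a transcript were deeper, with a median of 12021 transcripts against 6256 in cells without. The part of depth in what follows was not tested beyond the thinning given in the closing section. That thinning gave values for Crabp1, Stra6 and Dhrs3, and none for Rbp4 or Crabp2. Rbp4 stood at 0.201, 0.138, 0.422 and 0.252 in cells with a transcript, against 0.664, 0.0560, 0.122 and 0.154 in cells without, in tumours 1 to 4. It was higher in 3 of 4 tumours, by 0.89 on the log2 scale (SE 0.39, unadjusted p = 0.0443). Crabp2 stood at 0.306, 0.0289 and 0.102 in cells with a transcript, against 0.496, 0.0609 and 0.241 in cells without, in tumours 2 to 4, lower in 3 of 3 tumours, with a log2 difference of -0.92 (SE 0.31, unadjusted p = 0.0134). Stra6 differed by -0.33 (SE 0.21), Crabp1 by 0.37 (SE 0.25) and Dhrs3 by 0.07 (SE 0.18). None of the 5 members fitted was called by edgeR (adjusted p = 0.9997 for each) or by DESeq2, 2 had an unadjusted p under 0.05, and over 8539 genes 0.0% were called higher and 0.0234% lower.

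Of 45 other genes listed for the pathway, 38 had a row and 16 could be fitted on sums of at least 10 cells. Of the 16, 11 (68.8%) were called in at least 1 group, against 42.1% of all 5589 genes. In the fit of smaller sums, 12 of 18 (66.7%) were, against 53.3% of all 5289 genes. Wound-type cells had 5 of 16 higher and 3 lower, where 8.96% and 6.42% of all genes were higher and lower. Cyp26b1, an enzyme that breaks down retinoic acid, was the largest at 5.29 (SE 0.41), with a mean level of 4.96 ± 0.35 in wound-type cells (SD, n = 3) against 0.678 ± 0.576 in contractile cells (SD, n = 2). Rai14, a gene named for its induction by retinoic acid, was 2.27 higher there. Rarres2 and Tgm2, also listed for the response to retinoic acid, were called lower in these cells, Rarres2 at -1.84. Contractile cells had 2 higher and 5 lower (6.1% and 3.38% of all genes). Adh1, an alcohol dehydrogenase that oxidises retinol, stood at -3.34 and Rai14 at 1.92. Lpl, a lipase that acts on the retinyl esters of lipoproteins, was at -3.15. Rarres2 and Tgm2 were among the 5 lower. Lamina propria-like cells had 5 higher and 2 lower (8.16% and 2.65% of all genes). Lpl stood at 3.62, Rai14 at -3.22 and Rdh10, the main retinol dehydrogenase of the embryo, at 2.02. Rarres2 and Tgm2 were among the 5 higher.

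Adh1 was called higher in adventitial-like cells (2.18), inflammatory cells (1.88), other fibroblasts (1.97) and P2ry1 Kcnn3 cells (1.69), where 4, 3, 1 and 1 of 16 genes were higher, against 7.85%, 4.83%, 5.76% and 9.82% of all genes. A count of 1 of 16 is near these shares. P2ry1 Kcnn3 cells also had 2 lower (6.12% of all genes), Nrip1 at -3.14 and Tgm2 at -1.43. Smooth muscle-like cells had Tgm2, a transglutaminase gene that retinoic acid induces, higher by 1.75, and Adh1 lower, at -2.01. In the fit of smaller sums, telocyte-like cells had Rdh10 higher by 1.84 and Tgm2 by 1.89, and Adh1 lower, at -1.63. Trophocyte-like cells had Cyp26b1 higher by 4.37, at 3.97 ± 3.58 (SD, n = 3), with levels that ran between 0.262 and 7.40. Pericyte-like cells, in which no member was called (6.07% of genes higher), had Fabp5 and Cyp26b1 higher by 4.51 and 4.08. Both of these calls rest on 12 cells of tumour 2 and 5 cells of tumour 4. How evenly the tumours shared either difference cannot be read from the fitted values. Cyp26a1 had 9 transcripts in 2 cells, and the receptors Rara, Rarg, Rxra, Rxrb and Rxrg had 356, 548, 418, 191 and 21 transcripts in 230, 295, 253, 138 and 7 cells.

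Among 7956 genes with at least 100 transcripts, those most like each member over the 23 sums were found by Pearson's r of log2 CPM after tumour means were taken out. The sums share plates and depth, and many members are at 0 in many of them, so r is a description. They include no telocyte-like, trophocyte-like or red cell-like sums, where Rbp4, Aldh1a1 or Crabp1 stood high. The wound-type sum of tumour 2 is among them, with 117 Crabp1 transcripts in 1 cell. Stra6 was most like Col7a1 (0.956), Ptprn (0.940) and Sema7a (0.926). Rbp4 was most like Sucla2 (0.867), Id4 (0.862) and Gm15800 (0.859), and Aldh1a1 most like Lgals3bp (0.875), Ucp2 (0.863) and Isoc1 (0.859). Aldh1a2 was most like Mmp14 (0.790), Npc2 (0.781) and Nit2 (0.772), and Aldh1a3 most like Mrpl21 (0.779), Naa15 (0.760) and Ccdc12 (0.710). Crabp1 was most like Col23a1 (0.810), Srsf9 (0.708) and Mdm2 (0.631), and Crabp2 most like Rps4y2 (0.855), the cycling marker Top2a (0.824) and Slc16a3 (0.793). Dhrs3 was most like Babam1 (0.796), Nono (0.780) and Ebna1bp2 (0.774). Between members, r was highest for Stra6 with Aldh1a2 (0.658) and with Crabp2 (0.616), and lowest for Stra6 with Aldh1a1 (-0.51).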

How the data were processed

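Expected counts, that is estimated transcripts per gene and well, corrected by the authors for UMI saturation out of 4096 possible UMIs, were deposited for 4 plates of 384 wells; the submitters' processing notes name BWA and mm10. No source used here names the counting program, annotation or strand setting. Values above 0 lay within 0.00499 of the correction of a whole UMI. They were rounded to whole counts for tests. Sums per tumour and group held 36014 to 694045 transcripts. Spike-ins were left out.

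A well needed at least 1000 transcripts and at most 30% mitochondrial ones. Marker levels, log2(1 + transcripts per 10000), were standardised per gene with a ceiling of 5, and a cell joined the list with the highest mean score of at least 0.75 with at least 3 markers detected (2 for lists under 4 genes), or else the other fibroblasts with 4 of 6 fibroblast markers. The threshold was 1.0 at first and was moved to 0.75 after marker levels and group sizes, but no retinoid gene, had been looked at; 0.5 and 1.0 were tried. The retinoid genes and the lists were chosen with earlier results of these data known. No doublets were removed, as wells were meant for 1 cell.

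edgeR 4.0.16 (R 4.3.3) was run with TMM scaling, filterByExpr, the tumour as a block and marker genes left out of tests; the steps were tested on simulated data. Alternatives were DESeq2 1.42.0, RLE size factors, no filter, no replicate block, each tumour left out, whole UMIs, other well filters and gates, smaller sums and, added after the data were seen, the richest cell left out and the alternatives repeated on smaller sums. Named pathway genes are at most the 3 largest calls per contrast, and the other values of Adh1, Cyp26a1, Rara, Rarg and Rxra were chosen after being seen. The values of 1 pathway gene are not reported here. Members' r used a prior of 10 CPM and genes with 100 transcripts. numpy 2.4.6, pandas 2.3.3, scipy 1.17.1 and matplotlib 3.10.9 were used. Limits from 0 counts use 3 counts and cover counting error only.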

Additional observations from a re-analysis of the deposited data

Results flagged for a closer look

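The level of Rarb in tumour 1, 0.0758 per 10000, lay far from the 0.0353, 0.0363 and 0.0376 of tumours 2 to 4: its gap to the nearest value was 0.944 of the whole range, past Dixon's 95% critical value, which chance exceeds in about 1 of 20 groups. It rests on 3 transcripts in 43 cells, with a 95% exact binomial interval of 1.46 to 19.1% on the 6.98% of cells that held one.

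The 113 wells over the mitochondrial limit, 87 of them of tumour 1, were left out of every comparison and still held members: 26 transcripts of Dhrs3 in 17 wells and 4 of Aldh1a1 in 3 wells. Dhrs3 stood at 1.16 per 10000 in these wells, against 1.32 in the kept cells, and Aldh1a1 at 0.179, against 0.429. No Crabp1 or Crabp2 transcript was seen there.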

How the results depend on the processing

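The counts of called pairs of gene and group moved with the processing. On sums of at least 10 cells, 8 higher calls became 16 with no filter on low counts and 5 with at least 2000 transcripts or with at most 15% mitochondrial transcripts, and were 6 to 11 without 1 tumour. The 1 lower call, Aldh1a1 in contractile cells, became 0 with smaller sums and with whole UMIs, both well filters and the stricter gate; under these last 4 too few contractile sums were left for that contrast, so its 2 higher calls and 1 lower call drop out. It was 2 with the looser gate, and 0 to 1 without 1 tumour. On smaller sums DESeq2 gave 11 higher and 3 lower calls, against 18 and 0 with edgeR, and 15 to 20 higher without 1 tumour. Without the replicate block, which pairs groups of the same tumour, the counts were 8 and 1 on sums of at least 10 cells and 20 and 0 on smaller sums. No call arose in the split of cells under any alternative run. Crabp1 in wound-type cells was -0.95 without tumour 2 and up to 5.33 without another tumour; on smaller sums these were -1.04 and 4.65, and -0.89 without its richest cell. In the split, Crabp1 was -0.43 in thinned cells, and Dhrs3, at 0.069, was -0.033 with no replicate block and between -0.068 and 0.319 without 1 tumour. The cause was not tested. Stra6 in wound-type and contractile cells, Aldh1a2 in wound-type cells, Aldh1a1 in P2ry1 Kcnn3, telocyte-like and red cell-like sums, Rbp4 in telocyte-like cells, Crabp1 in trophocyte-like cells and Aldh1a3 in lamina propria-like cells (smaller sums) kept their direction and call under every alternative that gave a value. On sums of at least 10 cells Crabp1 in wound-type cells was not called by DESeq2 (adjusted p = 0.161). The richest cell could not be left out on sums of at least 10 cells for Crabp1 in wound-type cells and Crabp2 in contractile cells, which then missed the filter. Depth limits Rarb, with 34 transcripts in all, and sums of under 10 cells.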
